A study of Mus musculus with 5 samples.

Results

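A set of 737 strong and narrow promoter peaks of H3K4me3, trimethylation of lysine 4 on histone H3, was listed in WT double-positive (DP) thymocytes and had no counterpart in the list from Cxxc1-deficient cells. They were chosen from 14237 WT H3K4me3 peaks by a rule on measured values. Listed 200-bp windows with at most 2 missing windows between them were joined into peaks. A peak was a member if it lay on an autosome, was under 3000 bp wide, had summed values from 3.5 to 10 RPM (tags scaled to 1 M mapped tags), overlapped the 1 kb on either side of a protein-coding transcription start site (TSS), and had no Cxxc1-deficient peak within 1 kb. The first 4 criteria were met by 895 WT peaks, here called comparable peaks. Of these, 82.3% had no Cxxc1-deficient peak within 1 kb and are the members, and the other 158 are called retained peaks. Among all 6509 autosomal WT promoter peaks, of any width and strength, 87.7% had no Cxxc1-deficient peak within 1 kb. The absence from the Cxxc1-deficient list and the WT strength chose the members, so these values are given as a description.

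H3K4me3 marks the promoters of genes that are transcribed or poised, and is placed by the Setd1 and Mll methyltransferase complexes. Cxxc1 is a subunit of the Setd1 complexes and binds unmethylated CpG dinucleotides, which cluster in CpG islands at most mammalian promoters that work in many tissues. DP thymocytes, which express CD4 together with CD8, are T cell precursors that are tested for their antigen receptor before they become single-positive T cells.

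The study compared DP thymocytes sorted from the thymus of WT and Cxxc1-deficient mice by chromatin immunoprecipitation with sequencing (ChIP-seq), with 1 H3K4me3 library per genotype and a list of Cxxc1 peaks. Per the study's methods, the WT mice carried floxed Cxxc1 alleles without Cre, and in the Cxxc1-deficient mice hCD2-Cre, which acts in developing lymphocytes, deleted the floxed exons. The title of the Cxxc1-deficient H3K4me3 library says KO whereas its genotype label says Cxxc1+/-, a heterozygote, and the title was followed. How many mice went into each library is not given in the sources used here, so differences between the genotypes are without replication and no test was run. The steps between listed values placed the depth of both H3K4me3 libraries between 9.41 and 9.47 M tags. Intervals below are 95% Wilson intervals for shares and exact Poisson intervals for tag numbers, and both cover counting error only. A place outside the listed windows has an unknown signal, not a signal of 0, and lower H3K4me3 and weaker enrichment of the Cxxc1-deficient library cannot be told apart.

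As a check of the labelled cell type, 6 of 13 DP thymocyte marker genes had a WT promoter peak, from 2.3 RPM at Bcl11b to 9.9 RPM at Tcf7, while Cd4, Rag1, Rag2, Cd3d, Cd3g, Themis and Cd28 had none listed. In the Cxxc1-deficient list 3 of the 13 had a promoter peak (Cd8a, Rag1 and Cd3e, 1.7 to 3.2 RPM). Over all autosomal protein-coding genes, 32.5% had a WT promoter peak and 6.13% a Cxxc1-deficient one. Of the markers of other cells, 0 of 5 myeloid, 2 of 6 B cell (Cd79b at 2.7 RPM and Ebf1 at 4.0 RPM), 1 of 5 thymic epithelium (Aire at 2.8 RPM) and 1 of 4 erythroid genes (Klf1 at 3.7 RPM) had a WT promoter peak, and none of these 20 genes had a Cxxc1-deficient one. Klf1, a transcription factor of red cell precursors, was itself a member. Of the 13 DP markers 0 were members, but only 1 of them, Cd8a, had a comparable peak, and that peak was retained. Cd8b1, Tcf7, Bcl11b and Lck had a WT promoter peak that was not a comparable one, and no Cxxc1-deficient promoter peak. The part of other cells in the members was not tested.

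The sequence just before the TSS is shown for 8 members that span the range described below: the strongest member (Add3), members of 3 gene lists (Cdkn1b, Satb1 and Lat), the highest and a very low CpG observed to expected ratio of the peak (Yy1 and Relt), a member that overlapped a Cxxc1 peak (Numa1) and a promoter between divergent genes (Nfya and AI314976). None of these stretches holds an annotated exon. The sequences are from NCBIM37, the assembly of mm9, 5′ to 3′ on the strand of the gene, and cover the 250 bases before the TSS. They lie at chr19:53216996-53217245 (plus strand), chr6:134870169-134870418 (plus), chr17:51971998-51972247 (minus), chr7:133513058-133513307 (minus), chr12:110030933-110031182 (plus), chr7:108003944-108004193 (minus) and chr7:109118107-109118356 (plus). For Nfya and AI314976 the whole stretch of 107 bases between the divergent starts is given on the plus strand, at chr17:48549232-48549338. Capitals mark CpG dinucleotides, the motif that the CXXC finger of Cxxc1 reads.
Add3: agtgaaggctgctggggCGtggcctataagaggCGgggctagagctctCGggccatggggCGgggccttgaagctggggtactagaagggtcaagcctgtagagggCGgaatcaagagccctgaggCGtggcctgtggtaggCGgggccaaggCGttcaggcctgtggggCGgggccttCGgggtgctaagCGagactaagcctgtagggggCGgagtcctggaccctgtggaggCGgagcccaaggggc
Cdkn1b: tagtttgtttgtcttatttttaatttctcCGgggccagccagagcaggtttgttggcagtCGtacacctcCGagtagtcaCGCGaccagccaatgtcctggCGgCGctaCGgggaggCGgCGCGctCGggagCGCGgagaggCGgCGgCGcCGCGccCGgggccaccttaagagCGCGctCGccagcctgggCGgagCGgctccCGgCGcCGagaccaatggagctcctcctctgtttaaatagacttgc
Satb1: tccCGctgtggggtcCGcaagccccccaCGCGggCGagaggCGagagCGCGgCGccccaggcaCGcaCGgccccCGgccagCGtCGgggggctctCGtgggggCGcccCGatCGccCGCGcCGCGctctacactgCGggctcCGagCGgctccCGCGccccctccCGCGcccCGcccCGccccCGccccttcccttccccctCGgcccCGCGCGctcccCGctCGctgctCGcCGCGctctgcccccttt
Lat: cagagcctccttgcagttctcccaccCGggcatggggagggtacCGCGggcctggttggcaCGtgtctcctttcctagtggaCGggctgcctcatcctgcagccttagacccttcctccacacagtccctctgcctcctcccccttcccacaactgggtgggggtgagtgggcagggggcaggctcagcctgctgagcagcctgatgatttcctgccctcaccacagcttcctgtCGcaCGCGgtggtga
Yy1: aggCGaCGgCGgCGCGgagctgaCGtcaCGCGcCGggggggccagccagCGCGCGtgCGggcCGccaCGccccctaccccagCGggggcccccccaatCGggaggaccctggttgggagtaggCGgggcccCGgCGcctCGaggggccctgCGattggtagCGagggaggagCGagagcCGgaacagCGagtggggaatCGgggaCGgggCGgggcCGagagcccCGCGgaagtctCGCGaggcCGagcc
Relt: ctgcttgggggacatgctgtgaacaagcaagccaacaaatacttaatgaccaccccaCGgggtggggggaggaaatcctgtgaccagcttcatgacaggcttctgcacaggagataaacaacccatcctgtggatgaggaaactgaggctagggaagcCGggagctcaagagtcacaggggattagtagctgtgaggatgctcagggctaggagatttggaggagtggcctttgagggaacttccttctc
Numa1: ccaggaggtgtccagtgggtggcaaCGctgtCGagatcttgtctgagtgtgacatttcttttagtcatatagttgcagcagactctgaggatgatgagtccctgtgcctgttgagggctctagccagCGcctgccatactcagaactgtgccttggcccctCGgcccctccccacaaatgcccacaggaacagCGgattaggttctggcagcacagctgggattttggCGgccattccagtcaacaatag
Nfya and AI314976: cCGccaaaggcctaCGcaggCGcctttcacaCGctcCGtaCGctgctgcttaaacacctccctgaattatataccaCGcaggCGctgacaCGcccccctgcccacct

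The number of CpG dinucleotides in these 250 bases was 41 at Satb1, 35 at Yy1, 28 at Cdkn1b, 13 at Add3, 8 at Lat, 6 at Numa1 and 2 at Relt, and 9 lay in the 107 bases between Nfya and AI314976. The stretch at Numa1 lay wholly before its peak, which began at chr7:109118401 and had a CpG ratio of 0.529. The stretches at Satb1 and Relt lay inside their peaks. A strong WT peak without a listed Cxxc1-deficient peak thus occurred on sequence from dense (Satb1) to almost free of CpG (Relt). The GC content of the same stretches ran from 53.6% at Relt to 82.4% at Satb1.

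**Figure D1:**
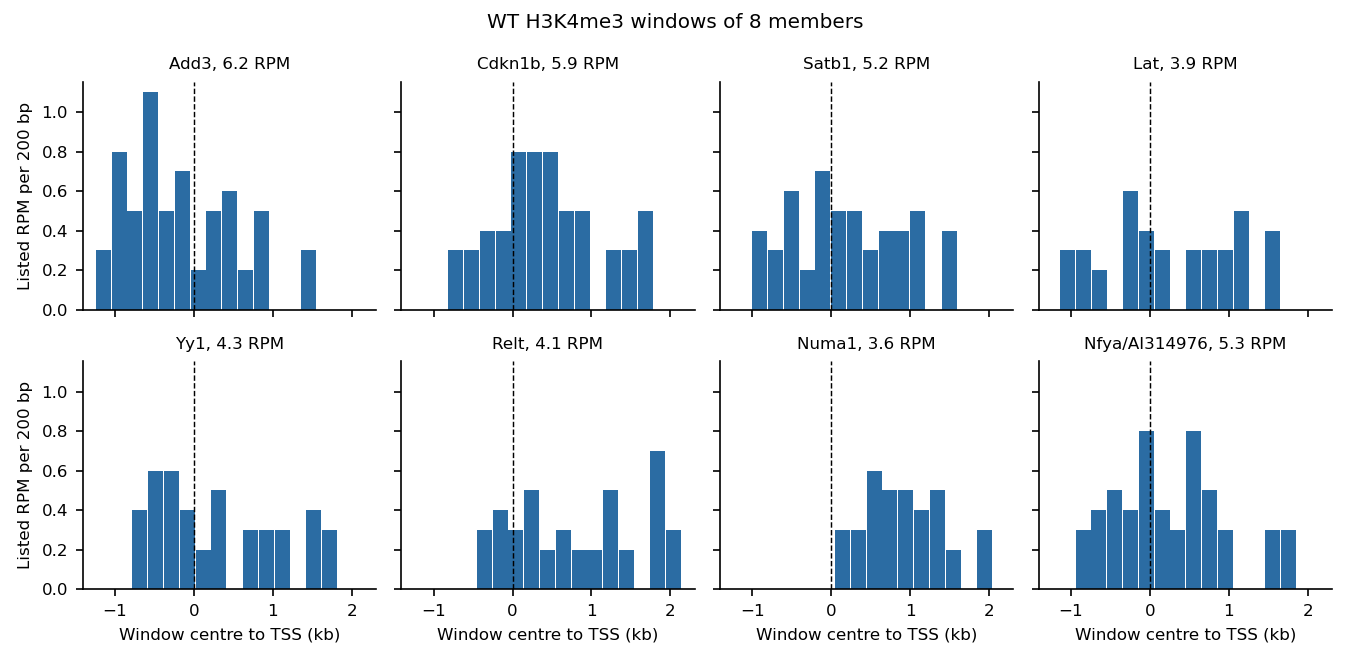
WT H3K4me3 of the 8 members whose sequence is shown. Each bar is the listed RPM of a 200-bp window (vertical axis) at the distance of its centre from the TSS in kb (horizontal axis, downstream to the right, dashed line at the TSS), each panel title gives the summed RPM, and gaps are windows that were not listed; Add3 reaches 1.1 RPM in its highest window and Lat, Yy1 and Numa1 stay at or below 0.6 RPM.

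The members summed to between 3.5 and 6.2 RPM, with a median of 3.9 RPM, which corresponds to 34 to 61 tags with a median of 39. Their width ran from 1000 to 2800 bp with a median of 2200 bp, over 5 to 14 listed windows. At Add3, which encodes the membrane skeleton protein gamma-adducin, 12 windows summed to 6.2 RPM or 61 tags (46.7 to 78.4). Anp32a, a nuclear protein that binds histones, had 6.1 RPM over 13 windows and also 61 tags. Next came Rap2a, a small GTPase of the Ras family, Rfx3, a transcription factor of ciliary genes, and Cdkn1b, the cyclin-dependent kinase inhibitor p27, each with 5.9 RPM and 59 tags (44.9 to 76.1). Mnt, a repressor that pairs with Max, and Skil, a repressor of Smad signalling, had 5.8 RPM. Patz1, a zinc finger protein that represses the Cd8 genes before the DP stage, the growth factor gene Fgf18, the phosphatase scaffold Ppp1r9b, 4831426I19Rik and Mllt1, a reader of acetylated histones, had 5.7 RPM, as did Zfp161, Mex3c and the peak shared by Mepce and Zcwpw1. The tag interval of Add3 overlapped that of a median member at 39 tags (27.7 to 53.3), so the order within the members was not resolved at this depth.

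The shape of the strongest members varied. At Anp32a every listed window centre lay downstream of the TSS, and at Rfx3 all but 2 of 13 lay upstream, with values between 0.3 and 0.6 RPM. Cdkn1b had its 3 highest windows, each 0.8 RPM, within 600 bp downstream. Fgf18 had a dip to 0.2 RPM just upstream of the TSS between flanks that reached 0.8 RPM. Ppp1r9b held a second member of 3.5 RPM, 0.6 kb from the first and at another of its annotated starts. This was the closest pair among 5 pairs of members within 10 kb, with Med22/Rpl7a and Surf1/Surf2 (3.0 kb), Neil1 and Commd4 (6.8 kb), Slc35b2 and Hsp90ab1 (7.4 kb), and Mgat4b and Ltc4s (9.2 kb) as the others.

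At the edges of the rule, 98 members had exactly 3.5 RPM, among them the peak shared by Eif5b and Txndc9, and 103 otherwise like peaks at 3.4 RPM were just outside, among them Stau2 and Ncl. There were 124 members of 2800 bp, and 94 WT promoter peaks of 3000 bp in the same band of strength, also without a Cxxc1-deficient peak, were just too wide, led by Ell (6.4 RPM) and Cxcr4 (6.1 RPM). No otherwise like peak was stronger than 10 RPM. The nearest Cxxc1-deficient peak was 1600 bp away at Dalrd3 and 1800 bp at Setd1a and Slc25a37, all members. At Ppp2r5c, Thy1 and Fam38a it was exactly 1000 bp away, so these 3 were retained peaks.

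For most members the Cxxc1-deficient list held nothing near. The nearest peak was 1 to 5 kb away at 21 members, 5 to 50 kb at 171 and over 50 kb at 545, with a median of 118.8 kb. The Cxxc1-deficient list also held weaker peaks. Among 2557 autosomal peaks under 3000 bp and at least as wide as the narrowest member (1000 bp), the lowest summed to 1.4 RPM. The weakest members had 2.50 times this value, but widths were not matched and the sum runs over all windows of a peak. Few Cxxc1-deficient peaks had the strength of a member. Of 1098 autosomal promoter peaks under 3000 bp in that list the median was 2.1 RPM and the 95th percentile 3.1 RPM. Under the same 4 criteria, 17 Cxxc1-deficient peaks passed, of which 16 had a WT peak within 1 kb and 1 did not, against 895 comparable peaks in WT. At the 158 retained peaks the Cxxc1-deficient value had a median of 2.2 RPM and a range from 1.4 to 4.2 RPM. The WT value was higher at 156, equal at 1 and lower at 1, with a median ratio of 1.77 (25th to 75th percentile 1.45 to 2.19), although WT was chosen to be at least 3.5 RPM and the other side was not. The strongest retained peak was at Eef2, a translation elongation factor gene, with 8.8 RPM in WT and 1.7 RPM in a Cxxc1-deficient peak 800 bp away.

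The share of comparable peaks that had no Cxxc1-deficient peak was highest in the weakest class, though the intervals overlapped. It was 84.5% (81.0 to 87.4) for 496 peaks of 3.5 to 3.9 RPM, 82.1% (76.4 to 86.7) for 212 of 4.0 to 4.4 RPM, 75.9% (67.3 to 82.7) for 116 of 4.5 to 4.9 RPM and 78.9% (68.0 to 86.8) for 71 of 5.0 RPM or more. By width, it ran from 78.4% to 86.4% with overlapping intervals and no steady direction. By chromosome, it ran from 65.4% (46.2 to 80.6) of 26 comparable peaks on chromosome 16 to 91.2% (77.0 to 97.0) of 34 on chromosome 13. Members were densest on chromosome 11, with 82 members or 0.673 per Mb, and chromosome 19, with 37 or 0.603 per Mb. These were 84.5% (76.0 to 90.4) of 97 comparable peaks on chromosome 11 and 90.2% (77.5 to 96.1) of 41 on chromosome 19. Both intervals held the 82.3% of all comparable peaks.

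**Figure D2:**
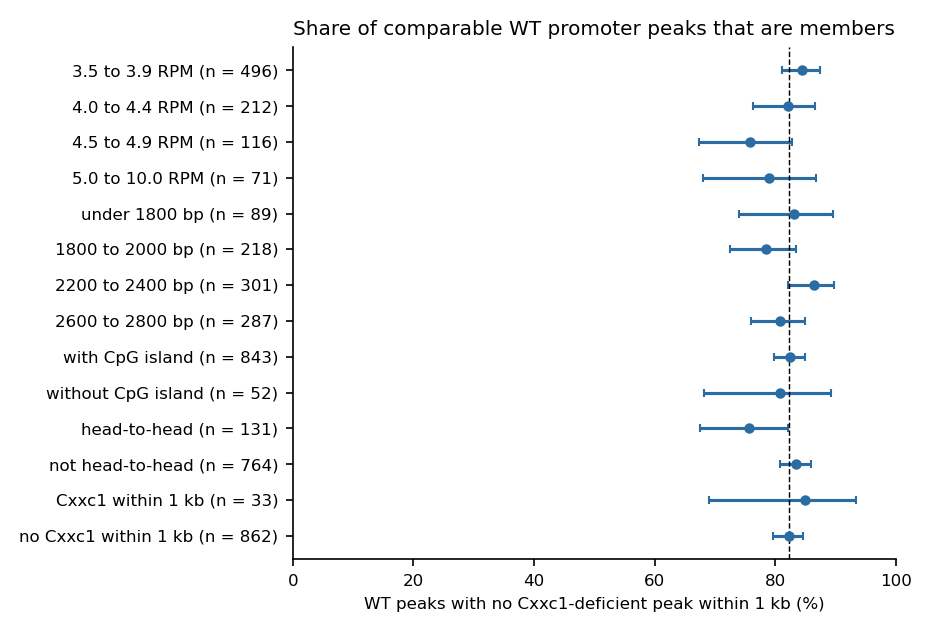
Percent of comparable WT promoter peaks with no Cxxc1-deficient peak within 1 kb (horizontal axis) by class of strength, width, CpG island, head-to-head start and Cxxc1 peak (vertical axis, n = comparable peaks in the class). Points are shares, bars 95% Wilson intervals and the dashed line 82.3%; the lowest points are head-to-head promoters at 75.6% and 4.5 to 4.9 RPM at 75.9%.

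Among members, 695 of 737 or 94.3% (92.4 to 95.8) overlapped a CpG island, defined here by a length of 500 bp or more, a GC content from 55% and a CpG observed to expected ratio from 0.65. This was close to the 93.7% (88.7 to 96.5) of retained peaks, and above the 84.6% (83.5 to 85.6) of 4488 weaker narrow WT promoter peaks that also had no Cxxc1-deficient peak. Those weaker peaks were narrower, with a median of 1400 bp, and the part of width in this was not tested. The CpG ratio of the whole peak had a median of 0.674 in members, 0.721 in retained peaks and 0.668 in all autosomal WT promoter peaks, and the GC content a median of 58.8%, 59.4% and 58.4%. Members with and without an island thus stood beside comparable peaks of the same kinds: 82.4% (79.7 to 84.9) of 843 comparable peaks with an island and 80.8% (68.1 to 89.2) of 52 without had no Cxxc1-deficient peak.

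The CpG extremes of the members were of different kinds. The highest ratios were 1.05 at Yy1, a zinc finger transcription factor, 1.01 at Jhdm1d, a histone demethylase, and 1.00 at the peak shared by Mfsd11 and Srsf2, a splicing factor. The lowest were 0.0136 at 4931408C20Rik, with 43.2% GC, 0.108 at Relt, a TNF receptor family member of lymphoid cells, and 0.153 at Ptpn7, a tyrosine phosphatase of blood cells. Relt had 4.1 RPM and Ptpn7 4.3 RPM, both above the median member. Tcf3, the E protein gene described below, was also among the 8 lowest with 0.169.

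**Figure D3:**
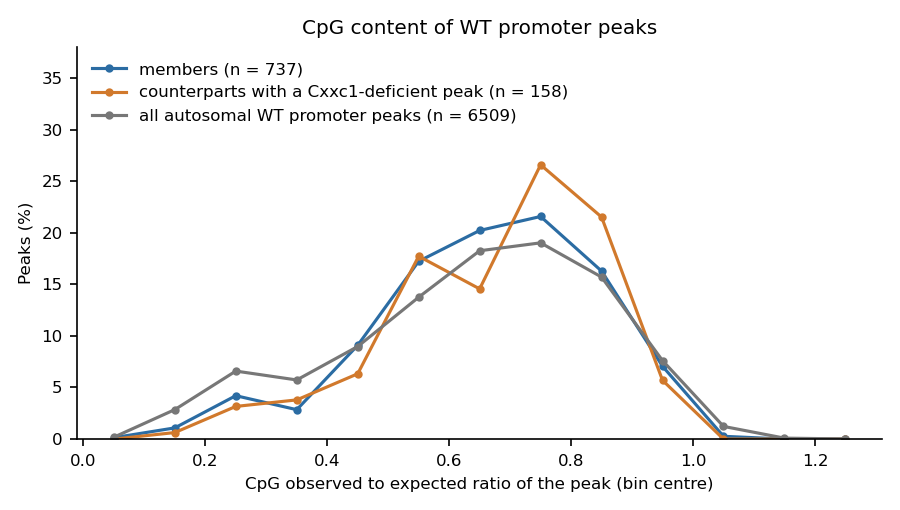
Percent of peaks (vertical axis) by the CpG observed to expected ratio of the peak sequence in bins of 0.1 (horizontal axis) for members, retained peaks (the counterparts with a Cxxc1-deficient peak) and all autosomal WT promoter peaks. The 3 curves overlap and peak in the same bin from 0.7 to 0.8, and members have a smaller share of peaks between 0.1 and 0.4 than all WT promoter peaks do.

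A Cxxc1 peak lay within 1 kb of 28 members, or 3.80% (2.64 to 5.44). The background was near this, with 2.89% of the other autosomal WT promoter peaks and 3.16% (1.36 to 7.19) of retained peaks. Of the 28, 19 overlapped the Cxxc1 peak. Seen from the comparable peaks, 28 of 33 with a Cxxc1 peak had no Cxxc1-deficient H3K4me3 peak (84.8%, 69.1 to 93.3), against 709 of 862 without (82.3%, 79.6 to 84.7). Most members therefore had no listed Cxxc1 peak beside them.

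Among the 28, Numa1, which organizes the mitotic spindle, had 3.4 RPM of Cxxc1 and 3.6 RPM of H3K4me3. Rrbp1, a ribosome receptor of the endoplasmic reticulum, had 2.9 RPM of Cxxc1 at a distance of 400 bp. Gm16517 and Slc16a1, the lactate transporter MCT1, had 2.6 RPM, Anxa2, a membrane-binding annexin, 2.5 RPM, Cnksr3 2.4 RPM, Arfgef1, an exchange factor of Arf GTPases, 2.3 RPM and the receptor tyrosine kinase gene Epha2 2.2 RPM. Ccdc142, the peak shared by Pfn1 and Eno3, and 3230401D17Rik had 2.1 RPM. A further 16 ran from 1.3 to 2.0 RPM and included Traf2, a signalling adaptor of TNF receptors, Irf2, an interferon regulatory factor, and Hoxa10. All but Osbpl7 of the 28 overlapped a CpG island.

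Around the TSS, the listed WT signal of the members was highest in the 200 bp on either side, where 88.9% of members had a listed window. The mean per member was 0.422 RPM in both of these bins and fell to 0.158 RPM from 800 to 1000 bp upstream and 0.218 RPM from 800 to 1000 bp downstream. Downstream windows held 55.6% of the listed RPM, and the retained peaks had a like share of 55.8%. At head-to-head promoters divergent protein-coding starts lie at most 1 kb apart, so this share cannot be read in the same way. The region past the partner's start counts as upstream there, although it is downstream of the partner. Of the listed RPM 44.9% lay downstream at the 99 head-to-head members and 57.2% at the other 638, and more than 50% lay downstream at 37 of 99 against 398 of 638.

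**Figure D4:**
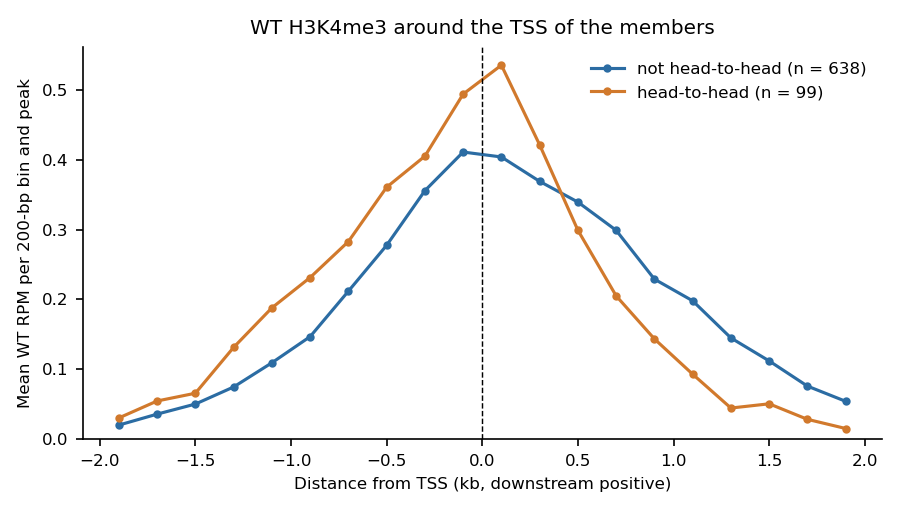
Mean listed WT RPM per 200-bp bin and peak (vertical axis) by distance from the TSS in kb (horizontal axis, downstream positive, dashed line at the TSS) for members at head-to-head promoters (n = 99) and other members (n = 638), with windows that were not listed counted as 0. The head-to-head curve reaches 0.535 RPM just downstream of the TSS and is the higher curve upstream, while the other curve is the higher one from 400 bp downstream on.

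Head-to-head promoters made up 13.4% (11.2 to 16.1) of the members and 20.3% (14.7 to 27.2) of the retained peaks, with overlapping intervals. They made up 8.76% (7.96 to 9.62) of the weaker peaks without a Cxxc1-deficient peak. A peak counted here only if it reached within 1 kb of both starts. The weaker peaks were narrower, with a median of 1400 bp against 2200 bp in members, and the part of width was not tested. Among comparable peaks, 75.6% (67.6 to 82.1) of 131 at head-to-head promoters and 83.5% (80.7 to 86.0) of the other 764 had no Cxxc1-deficient peak. The pairs among the members included Hspd1 and Hspe1, the mitochondrial chaperonin genes, at 3.5 RPM, and Nfya, a subunit of the CCAAT-binding factor, with AI314976, at 5.3 RPM and with starts 108 bp apart.

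Promoter motifs of the members were compared with those of the retained peaks. In the window from 250 bp before to 50 bp after the TSS, both strands were searched for the TATA box (TATAAA), the CCAAT box (CCAAT), the GC box of Sp1 (GGGCGG), and motifs of Ets factors (CCGGAAG), Nrf1 (GCGCATGC), Creb (TGACGTCA), Myc and Usf (CACGTG), Kaiso (CTCGCGAG), Znf143 (ACTACAA), Yy1 (AAGATGGCG), Runx (TGTGGT) and E proteins (CAGGTG). None of these words contains another, though their matches can overlap by a few letters. The GC box was in 74.5% (71.2 to 77.5) of members, 70.9% (63.4 to 77.4) of retained peaks, 68.9% of all autosomal WT promoter peaks and 44.3% of windows at 1 TSS for each of 21410 autosomal gene identifiers. The TATA box was in 3.26% (2.20 to 4.80), 5.06% (2.59 to 9.67), 5.22% and 13.5%. The Runx word was in 10.7% (8.69 to 13.2) of members, 11.2% of all autosomal WT promoter peaks and 15.2% of all genes. The Ets word was in 14.1% (11.8 to 16.8), 16.1% and 11.1%, the E protein word in 17.6%, 19.5% and 19.9%, and the CCAAT box in 34.5%, 35.8% and 37.6%, in the same order. For each of the 12 words the intervals of members and retained peaks overlapped, though those of the 158 retained peaks were wide. In the sequences printed above, GC boxes occur at Add3, Cdkn1b, Satb1 and Yy1, CCAAT boxes at Cdkn1b and Yy1, the Runx word at Add3 and Lat, and none of the 12 words at Relt, at Numa1 or between Nfya and AI314976.

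The members touched the promoters of 861 genes by symbol, or 4.05% of 21275 autosomal protein-coding genes, and 12.4% of the 6922 genes with any autosomal WT promoter peak. A member touched 1 gene in 613 cases, 2 in 123 and 3 in 1. A further WT promoter peak was listed at 61 of the 861 genes. At 7 of them a Cxxc1-deficient peak lay at another TSS of the gene: Mafg (3.1 RPM), Btbd19 (2.9 RPM), Hdac7 and Kctd1 (1.9 RPM), Dnmt3a and Patz1 (1.7 RPM) and Mkl1 (1.6 RPM). At these genes the absence from the Cxxc1-deficient list therefore concerned 1 promoter and not the gene as a whole. Gene lists below are described by counts only.

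T lineage transcription factors had the largest share among the lists of 25 or more genes. A member lay at 10 of 44, or 22.7% (12.8 to 37.0), against 4.05% of all genes, and their median was 3.8 RPM against 3.9 RPM for all members. WT promoter peaks of any kind were also common on this list, at 39 of 44 genes, and the 10 made up 25.6% (14.6 to 41.1) of these against 12.4% for all genes. Of 11 with a comparable peak, 10 had a member, beside 861 of 1053 over all genes. A comparable peak was thus at 11 of 44 genes of this list and at 1053 of all 21275 genes. Once a comparable peak was present, its absence from the Cxxc1-deficient list was common in both. Cxxc1-deficient promoter peaks were also common on this list, at 10 of 44 genes (22.7%) against 6.13% of all genes. Patz1 had 5.7 RPM and Satb1, an organizer of thymocyte chromatin, 5.2 RPM over 12 windows, of which the highest (0.7 RPM) was next to the TSS. Rbpj, the DNA-binding effector of Notch, had 4.4 RPM, Ikzf1, which encodes Ikaros, 3.9 RPM, and the Ets factor gene Elf1 and Tox, a factor of CD4 lineage development, 3.8 RPM. Tcf3, which encodes the E2A proteins, and Egr2 had 3.6 RPM, and Nr4a1 3.5 RPM. Nfe2l2, on the list although a factor of the oxidative stress response, had 3.6 RPM, and no count without it was made. Egr2 and Nr4a1 are induced by T cell receptor signals. None of the 10 members exceeded 57 tags, and their intervals overlapped from Patz1 (43.2 to 73.9) to Nr4a1 (24.4 to 48.7).

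Of 64 T cell receptor signalling genes, 4 had a member, or 6.25% (2.46 to 15.0). They included Nfatc2, a calcium-dependent transcription factor (4.7 RPM), Cd247, the zeta chain of the receptor complex (4.5 RPM), and the adaptor gene Lat (3.9 RPM), whose peak had a CpG ratio of 0.263. At Cd247 the highest window lay 1205 bp downstream of the TSS, the CpG ratio was 0.346, and a Cxxc1 peak lay 1200 bp away, outside the distance used. A WT promoter peak of any kind was listed at 38 of the 64 genes (59.4%), against 32.5% of all genes. A Cxxc1-deficient one was listed at 13 (20.3%), against 6.13% of all genes. The 4 genes with a member made up 10.5% (4.17 to 24.1) of those with a WT promoter peak, against 12.4% for all genes. The cytokine receptor and Jak-Stat list had a member at 0 of 39 genes, and its Wilson upper limit of 8.97% lay above the 4.05% of all genes. Some WT promoter peak was at 25 of the 39 and a comparable one at 1.

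Genes of the Setd1 and Mll complexes and histone demethylases had a member at 4 of 27, or 14.8% (5.92 to 32.5), with a median of 3.85 RPM. Mll5, a SET domain protein, had 5.0 RPM at a peak shared with 5031425E22Rik, whose TSS was nearer to the highest window. Wbp7, an H3K4 methyltransferase of the Mll family, had 3.9 RPM. Setd1a, the catalytic subunit of a Setd1 complex, to which Cxxc1 belongs, and Kdm2a, a CXXC finger demethylase that acts on H3K36 and not on H3K4, had 3.8 RPM. Without Kdm2a the list had 3 of 26 (11.5%), an interval that reaches from just under 4.05% to 29.0%, and this count was added after the values were seen. When a gene was counted only through the TSS nearest to the highest window, 3 of the 27 were left.

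In metabolism, 5 of 39 genes of the tricarboxylic acid cycle and glycolysis had a member (12.8%, 5.60 to 26.7), with a median of 3.9 RPM. They included Aco1, the cytosolic and not the mitochondrial aconitase (5.2 RPM), and no count without it was made. The others were Ldha, lactate dehydrogenase A (4.6 RPM), the glycolytic enzyme genes Gpi1 and Pfkl (3.9 RPM) and Dlst, a subunit of the oxoglutarate dehydrogenase complex (3.8 RPM). Respiratory chain subunits had a member at 2 of 81 (2.47%, 0.680 to 8.56), including Atp5g2 (3.7 RPM), and mitochondrial ribosomal proteins at 1 of 76, Mrps18b (3.6 RPM). Solute carriers had 13 of 315 (4.13%), led by the mitochondrial iron transporter gene Slc25a28 (5.4 RPM), Slc12a7 (4.6 RPM) and the zinc transporter gene Slc39a9 (4.5 RPM).

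Cytosolic ribosomal proteins had a member at 7 of 78 genes (8.97%, 4.42 to 17.4), with Rpl7 (4.3 RPM), Rpl24 (4.1 RPM) and Rps14 (3.7 RPM) as the strongest. Their median of 3.6 RPM was below that of all members, and 5 were left when the nearest TSS alone was counted. Splicing genes had 7 of 87 (8.05%, 3.95 to 15.7), led by Srsf2 (4.7 RPM), Hnrnpu (4.1 RPM) and Hnrnph1 (4.0 RPM). Translation initiation factors had 4 of 55, with Eif3b (4.2 RPM), Eif4b (3.8 RPM) and Eif4a1 (3.6 RPM) first. Among the smaller complexes, Mediator had 2 of 28 (Med22 and Med20), the nuclear pore 2 of 29 (Nup50 and Rae1), RNA polymerases 1 of 27 (Polr2i) and aminoacyl tRNA synthetases 1 of 40 (Pars2). Proteasome genes had 2 of 47, the immunoproteasome subunit Psmb9 (3.8 RPM) and the assembly factor Psmg2 (3.6 RPM).

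Cell cycle and DNA replication genes had a member at 4 of 83 (4.82%, 1.89 to 11.7). These were Cdkn1b (5.9 RPM), the replicative helicase subunit Mcm7 (4.3 RPM), the inhibitor Cdkn1a, which encodes p21 (3.9 RPM), and the retinoblastoma gene Rb1 (3.7 RPM). This share was near the background. DNA repair genes had 0 of 66, with an upper limit of 5.50% that also lay above the 4.05% of all genes. Some WT promoter peak was at 32 of the 66 and a comparable one at 2. As a share of these 32, the upper limit was 10.7%, below the 12.4% of all genes with a WT promoter peak. Apoptosis and survival genes had 2 of 42, the mitochondrial protease Htra2 (4.7 RPM) and the Bcl2 family member Bad (4.2 RPM). The Htra2 peak was shared with Aup1, and 1 of the 42 was left with the nearest TSS alone. Autophagy and lysosome genes had 3 of 47, Atg2b and Mcoln1 (3.7 RPM) and Map1lc3b (3.6 RPM).

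Zfp genes had 11 of 355 (3.10%, 1.74 to 5.46), led by Zfp161 (5.7 RPM) and Zfp664 (5.3 RPM), and Tmem genes 11 of 204 (5.39%, 3.04 to 9.40), led by Tmem229b (5.6 RPM). Vps genes had 3 of 30 (interval 3.46% to 25.6%), Vps16, Vps37b and Vps26b, of which 1 was left with the nearest TSS alone. Rab genes had 3 of 52 (5.77%, 1.98 to 15.6), Rab10, Rab40c and Rab5b. Ubiquitin specific proteases had 3 of 43 (6.98%, 2.40 to 18.6), Usp34, Usp20 and Usp28, and ubiquitin conjugating enzymes 0 of 31 (upper limit 11.0%). The intervals of the Zfp, Tmem, Vps, Rab and both ubiquitin lists all held the background of 4.05%. Hox genes had 1 of 39, Hoxa10 at 3.6 RPM. Olfactory receptor genes, which act mainly in the nose, had 0 of 1081 (upper limit 0.354%). Among lists of 25 or more genes, the intervals that lay wholly above 4.05% were those of the T lineage factors, the Setd1 and Mll list, the tricarboxylic acid cycle and glycolysis, and the cytosolic ribosomal proteins, and WT promoter peaks of any kind were at 59.0% to 88.6% of the genes of these lists against 32.5% of all genes. As a share of the genes with a WT promoter peak, the T lineage factors lay above the 12.4% of all such genes. The DNA repair genes (upper limit 10.7%) lay below it. The intervals of the Setd1 and Mll list (21.1%, 8.51 to 43.3), the tricarboxylic acid cycle and glycolysis (18.5%, 8.18 to 36.7) and the cytosolic ribosomal proteins (15.2%, 7.57 to 28.2) held 12.4%. With the nearest TSS alone, the intervals of the cytosolic ribosomal proteins (6.41%, 2.77 to 14.1) and the Setd1 and Mll list (11.1%, 3.85 to 28.1) also held 4.05%. The share over all genes was then 3.46%. Counted in this way, 5 of 87 splicing genes, 11 of 315 solute carriers, 9 of 355 Zfp genes and 8 of 204 Tmem genes were left. Of the proteasome genes 1 of 47 was left, and of the mitochondrial ribosomal proteins 0 of 76.

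**Figure D5:**
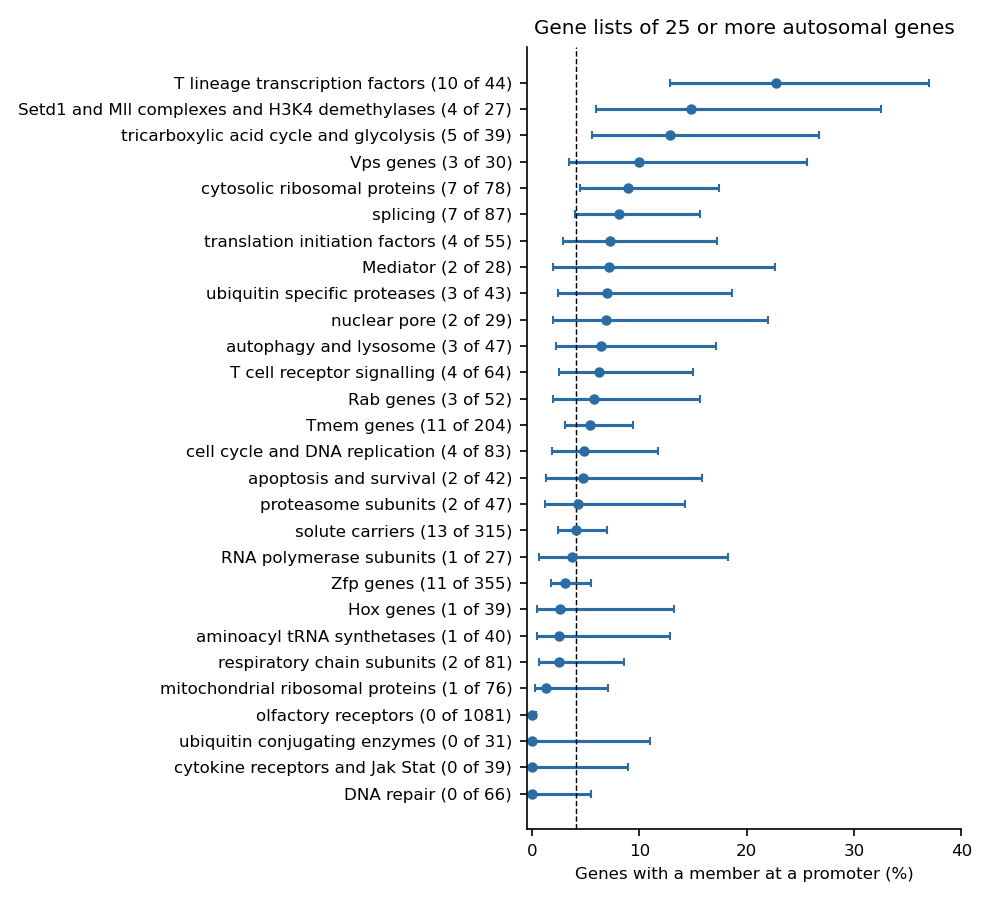
Percent of the genes of each list with a member at a promoter (horizontal axis) for lists of 25 or more autosomal genes (vertical axis, with counts). Points are shares, bars 95% Wilson intervals and the dashed line the 4.05% of all autosomal protein-coding genes; T lineage transcription factors lie at 22.7% and 4 lists lie at 0.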

How the data were processed

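Data comprised 3 lists of enriched windows from DP thymocytes: H3K4me3 in WT, H3K4me3 in Cxxc1-deficient cells, and Cxxc1, whose list names no genotype and is taken as WT from the study's methods. The Cxxc1-deficient Cxxc1 ChIP and the WT input were not analysed here. The authors mapped reads to mm9 and called islands with SICER 1.1 (CASAVA 1.8.2 is also named in the submitters' processing notes), and deposited RPM (tags scaled to 1 M mapped tags) for each 200-bp window at 1 decimal. Per the study's methods, input DNA and ChIP DNA of Cxxc1-deficient cells were the controls, which is ambiguous for H3K4me3, and either control bears on which places were listed. The aligner and duplicate handling are not given in the sources used here. A weak place is not listed, so its value is unknown.

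Windows were joined and RPM summed per peak in Python 3.11.15 (numpy 2.4.6, pandas 2.3.3, scipy 1.17.1). Tags per window were recovered from the value of 1 tag (0.1056 to 0.106 RPM for H3K4me3 and 0.1094 to 0.11 RPM for Cxxc1), inferred from which decimals occur, and functions were tested on simulated data. Starts were those of protein-coding transcripts in GENCODE vM1 on NCBIM37, and position and profile values refer to the TSS nearest to the highest window. Genes of the same symbol were counted once. Named genes were the 12 strongest members (ties ordered by position, further ties at the same value also named), the 12 with the highest Cxxc1 RPM, up to 3 per gene list, with whole short lists added after their values were seen, the CpG extremes and the members at the edges of the rule. Members and lists were chosen with earlier results of these data known. Genes on sex chromosomes were left out except in the check of markers, and some items that this rule names are not reported here.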

Additional observations from a re-analysis of the deposited data

How the results depend on the processing

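No paired analysis was possible because H3K4me3 was measured in 1 library per genotype. Of 63 alternative values, 13 moved outside the interval of the reported value (for counts, by over 1.5 times). The number of members was 1443 when peaks from 3.0 RPM entered and 318 from 4.0 RPM, and the share without a Cxxc1-deficient peak was then 84.7% and 79.7%. From 3.0 RPM, 92.0% of members overlapped a CpG island, and 97.8% of the 737 overlapped one under the looser definition (at least 200 bp, 50% GC and a ratio of 0.6). The share of members with a Cxxc1 peak was 2.58% for overlap and 5.70% within 5 kb. Head-to-head starts at most 500 bp apart were at 11.0% of members. The downstream share of the RPM was 56.2% with the TSS nearest to the peak midpoint and 57.2% without head-to-head members. The median CpG ratio was 0.788 in the 500 bp on either side of the TSS. At least 1 of the 12 motifs was in 93.8% of members, and in 99.1% in the longer window from 500 bp before to 100 bp after the TSS. Other joining distances, TSS distances and Cxxc1-deficient distances left these values inside their intervals. With 1 library per genotype and 34 to 61 tags per member, differences between single members were not resolved.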
